A study of Mus musculus with 16 samples.

Results

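A set of 9 genes of mouse chromosome 9 that lie near Atm, and that differed strongly between the cerebellum of Atm-/- and WT mice, was followed through every probe that the arrays hold for them. They are Ift46, Tmem25, Il10ra, Fxyd6, Nxpe4, Pts, Zc3h12c, Nrg4 and Lrrc49, measured by 15 of the 56605 probes on the array, and 14 of those 15 passed the filter on dim probes and missing values together with 37253 probes in all. The members were chosen by the difference between Atm-/- and WT arrays in these same data, so that difference is described here with no p-value, under vehicle and under nicotinamide riboside (NR) alike, and the number of members that a threshold on it takes in only restates the choice. Tests are given for what the choice did not use, namely the NR differences within a genotype, the difference between them, and other genes. Ift46 and Nrg4 have 3 probes each, Il10ra and Zc3h12c 2 each, and the other members 1 each, and the probes of a gene are numbered from the brightest to the dimmest over all arrays.

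RNA of the cerebellar cortex was hybridized on 16 arrays of 1 colour, 1 for each mouse, with 4 arrays to a group: Atm-/- veh, Atm-/- NR, and WT with either treatment. All mice came from the strain labelled B6;129S4-Atmtm1Bal/J, in which the Atm gene is disrupted in every tissue and not in a chosen cell type, and the WT mice were littermates. The mice were labelled male, began treatment at 6 weeks of age and were 3.5 months old when the tissue was taken. The drinking water of the NR groups held 3.5 mg/ml (12 mM) of NR, from which cells make NAD+, for 2 months, and the vehicle (veh) groups had water alone. Values are log2 of the background-subtracted spot signal after quantile normalization, and a difference of 1 is a doubling of the signal. A level of one probe cannot be set against that of another, and in whole tissue fewer cells of a type and less RNA per cell cannot be told apart.

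An allele made in embryonic stem cells of a 129 strain and bred onto another background carries along the DNA that flanks it, because recombination close to the selected allele is rare. Genes in that flanking stretch, called passenger genes, can differ in sequence or in level between mutant mice and their littermates for reasons of strain. A sequence difference under an array probe can also change how well a transcript binds it. The roles of the 9 genes have little in common. Ift46 belongs to the intraflagellar transport complex B, which moves cargo along cilia, and Lrrc49 to the tubulin polyglutamylase complex, which adds glutamate chains to microtubules. Il10ra is the ligand-binding chain of the interleukin-10 receptor, Nrg4 is a growth factor that binds the receptor ErbB4, Fxyd6 is a small membrane protein that modulates the sodium pump, and Tmem25 is a membrane protein of the immunoglobulin superfamily that is expressed in neurons. Pts makes an intermediate of tetrahydrobiopterin, the cofactor of the hydroxylases that make dopamine and serotonin and of nitric oxide synthases. Zc3h12c encodes a ribonuclease of the family that degrades messages of inflammation, and Nxpe4 a protein of the neurexophilin and PC-esterase domain family.

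The study genotyped its mice by PCR with one pair of primers for the wild-type and another for the targeted allele of Atm. The wild-type pair is shown, 5′ to 3′, because the labels of genotype rest on that assay:
Forward primer: tcaaggcatgccattatctgtctt
Reverse primer: ctgactggaaactgatcgctacttt

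Promoter windows from RefSeq (build GRCm38.p6, 250 bases before to 50 bases after a start of transcription) were matched by symbol for 8 of the 9 members, 10 windows in all. Those of Tmem25 and Pts are shown for the members that were lower in Atm-/- mice. Those of Zc3h12c and Lrrc49, at the outer of 2 starts each, are shown for members that were higher, Zc3h12c on its brighter probe alone. Capitals mark GGGCGG, the core of the GC box, and CCAAT, each on either strand, and they do not overlap in these windows.
Tmem25, chr9:44799198-44799497, minus strand: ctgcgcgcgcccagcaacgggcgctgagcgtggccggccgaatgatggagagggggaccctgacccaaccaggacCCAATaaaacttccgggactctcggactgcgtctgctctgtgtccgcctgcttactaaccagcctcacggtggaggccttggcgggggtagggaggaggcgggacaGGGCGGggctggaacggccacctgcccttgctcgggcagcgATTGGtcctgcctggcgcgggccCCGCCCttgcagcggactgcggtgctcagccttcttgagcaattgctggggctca
Pts, chr9:50528607-50528906, minus strand: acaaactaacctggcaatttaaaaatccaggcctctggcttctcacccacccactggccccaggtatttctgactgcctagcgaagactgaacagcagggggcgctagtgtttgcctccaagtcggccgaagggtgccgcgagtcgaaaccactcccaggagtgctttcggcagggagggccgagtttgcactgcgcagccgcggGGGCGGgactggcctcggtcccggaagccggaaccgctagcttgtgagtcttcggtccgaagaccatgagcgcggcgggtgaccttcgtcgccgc
Zc3h12c, chr9:52168357-52168656, minus strand: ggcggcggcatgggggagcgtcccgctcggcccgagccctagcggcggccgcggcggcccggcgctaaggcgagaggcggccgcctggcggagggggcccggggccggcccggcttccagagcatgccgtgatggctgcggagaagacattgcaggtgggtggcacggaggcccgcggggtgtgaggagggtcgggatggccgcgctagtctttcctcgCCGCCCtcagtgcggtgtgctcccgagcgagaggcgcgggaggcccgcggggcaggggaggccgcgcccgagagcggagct
Lrrc49, chr9:60688085-60688384, minus strand: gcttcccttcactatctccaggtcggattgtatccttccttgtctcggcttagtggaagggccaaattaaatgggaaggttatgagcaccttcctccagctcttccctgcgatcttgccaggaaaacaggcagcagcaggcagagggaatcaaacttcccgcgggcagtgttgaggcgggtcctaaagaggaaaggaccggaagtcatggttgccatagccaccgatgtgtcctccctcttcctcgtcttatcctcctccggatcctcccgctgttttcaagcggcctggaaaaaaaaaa
Among the 10 windows of members, 4 held GGGCGG and 4 held CCAAT, while 35.7% and 37.4% of all 32851 windows did. The Tmem25 window held both motifs on both strands, and that of Lrrc49 held neither.

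All 8 WT arrays lay on one slide and all 8 Atm-/- arrays on another, so slide and genotype cannot be told apart, and within each slide the vehicle arrays formed one row and the NR arrays the other. The number of arrays and of probes well above background, 34945 to 42559 on an array, limits the precision. Genes that mark cerebellar neurons (Pcp2, Calb1, Gabra6, Cbln1 and Zic1) were well above background on all 16 arrays. On 4 of the 16 arrays (Atm-/- NR 4, Atm-/- veh 3, WT NR 4 and WT NR 1) signal of Y-linked genes was missing and Xist was seen, against the label male. Atm itself was measured by 2 probes, and the part of the transcript that either matches was not analysed here. The dimmer Atm probe ran from 8.52 to 9.03 on the WT arrays and from 7.72 to 8.08 on the Atm-/- arrays, without overlap, and the brighter from 8.88 to 9.27 and from 8.61 to 9.23, with overlap. Both were well above background on all 16 arrays.

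One array stood apart from its label in the members. On 11 of the 15 member probes the array WT veh 1 was the WT array nearest to the Atm-/- arrays, against 17.6% of all 37253 probes, and no other WT array held that place on more than 1 member probe. Its place was measured on the linear scale, as the percent of the way from the mean of the other 7 WT arrays to the mean of the 8 Atm-/- arrays, so that 0 is the one and 100 the other. Over the 14 member probes whose genotypes did not overlap on the other 15 arrays, WT veh 1 lay at a median of 56.0% of the way. The same measure on the 7 other WT arrays, each left out of its own choice of probes, gave medians from -14.6% to 6.90%, and on the 8 Atm-/- arrays from 87.5% to 110%. Of the 14 probes, 10 put WT veh 1 between 25% and 75% of the way, with Ift46 probes 1 and 3 at 49.8% and 49.7%, Il10ra probe 1 at 54.1%, Nxpe4 at 62.4% and Pts at 68.6%. Zc3h12c probe 1 at 8.93%, Lrrc49 at 13.2% and Fxyd6 at 22.3% lay closer to the WT arrays, and Nrg4 probe 2, which was not well above background on WT veh 1, lay at 112%.

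**Figure D1:**
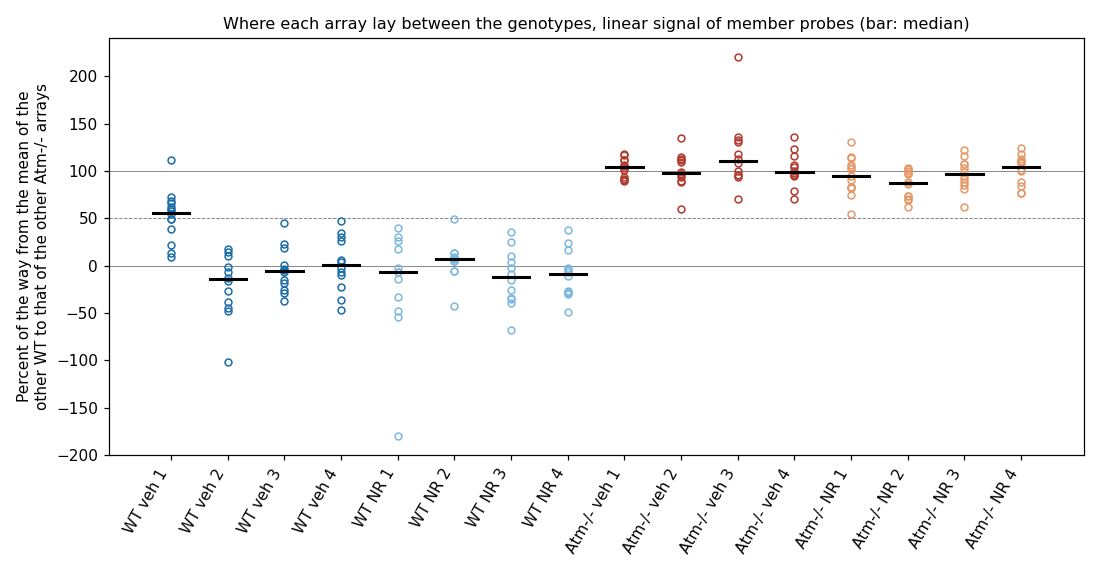
Position of each of the 16 arrays (x axis) on the linear signal scale, as percent of the way from the mean of the other WT arrays to that of the other Atm-/- arrays (y axis); each circle is 1 member probe whose genotypes did not overlap on the other arrays, and the bar is their median. WT veh 1 has its median at 56.0%, the 7 other WT arrays between -14.6% and 6.90%, and the Atm-/- arrays between 87.5% and 110%.

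The place of WT veh 1 was measured again on probes that are not members. Among the other probes within 20 Mb of Atm, 24 probes of 23 genes did not overlap between the genotypes on the 15 other arrays, and WT veh 1 lay at a median of 53.8% of the way on them, with 16 of the 24 between 25% and 75%. The 7 other WT arrays had medians from -16.9% to 21.9% on probes chosen in the same way. For probes elsewhere in the genome, WT veh 1 was at a median of 38.8% over 51 probes, inside the range of -31.0% to 41.7% of the 7 other WT arrays. At the dimmer Atm probe WT veh 1 was at 15.8%, where the 7 other WT arrays ran from -66.6% to 33.3% and the Atm-/- arrays from 80.4% to 117%. On the brighter it was at -3.19%. That probe cannot place an array, because the other WT arrays ran from -159% to 77.7% on it and Atm-/- NR 2 was at -71.2%. WT veh 1 shared its slide with the other 7 WT arrays, and it carried Y-gene signal as labelled. This array was kept in its labelled group, and the genotype difference under vehicle of each probe in the fit is given with it and without it. What sets it apart was not tested.

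Of the 15 member probes, 9 were lower on all 8 Atm-/- arrays than on any of the 8 WT arrays, 3 were higher on all of them, and 3 overlapped (Ift46 probe 2, Nrg4 probe 2 and Zc3h12c probe 2). Over all probes tested, 0.244% had genotypes that did not overlap. Since the members were chosen by this contrast, nothing is read from that comparison. Without WT veh 1 the count of member probes with no overlap was 14, and Zc3h12c probe 2 alone still overlapped, against 0.360% of all probes.

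**Figure D2:**
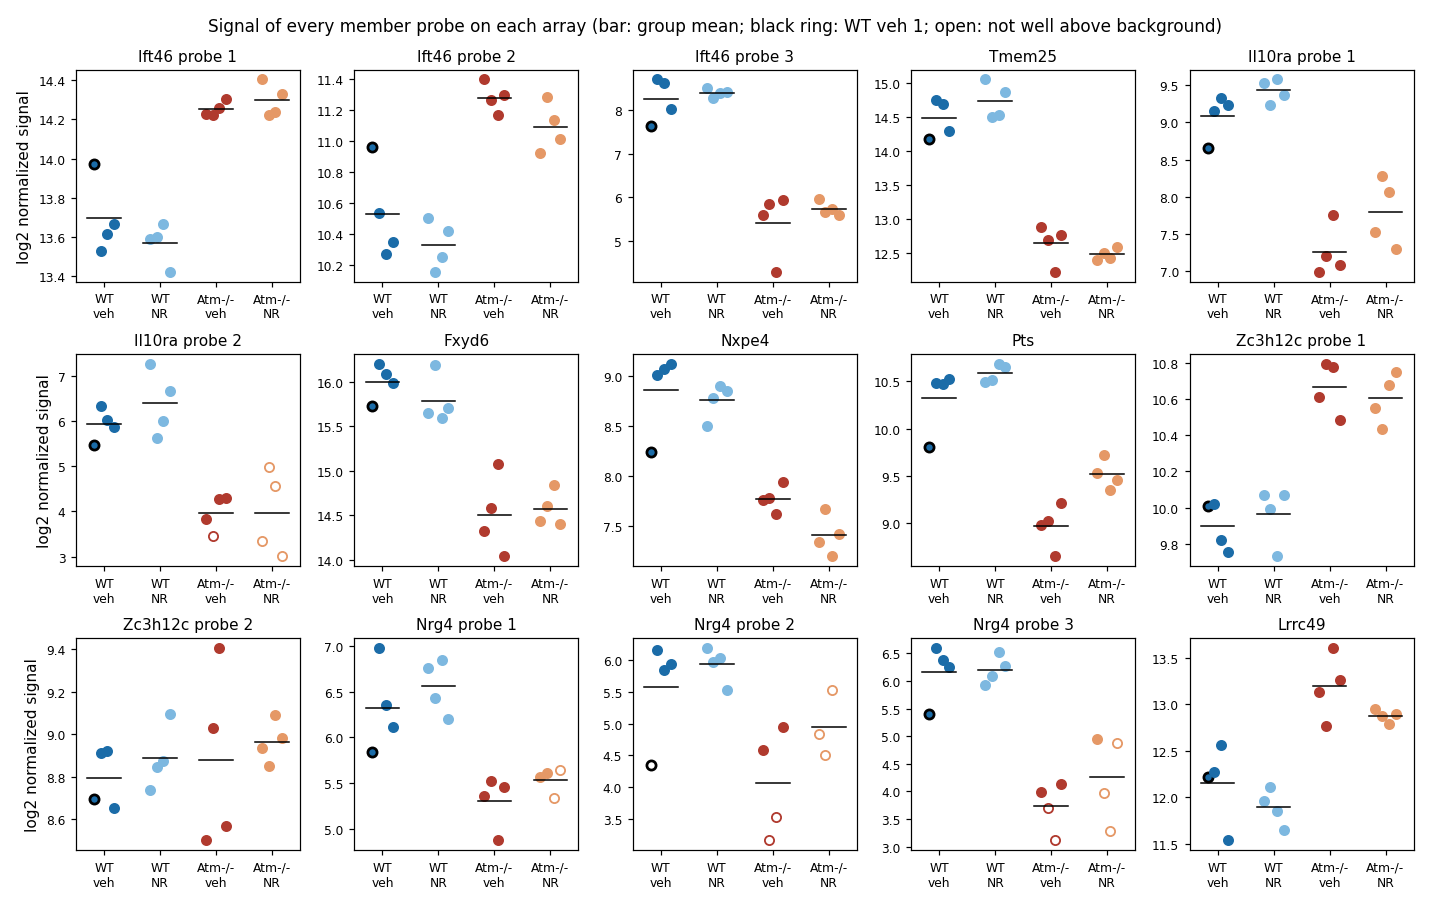
Log2 normalized signal (y axes, each with its own range) of the 15 member probes on every array, by group (x axes); bars are group means of 4 arrays (3 for Nrg4 probe 2 in Atm-/- NR), the black ring is WT veh 1 and open circles were not well above background. WT and Atm-/- arrays do not overlap for 12 probes, and WT veh 1 is the WT array nearest to the Atm-/- arrays for 11.

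Ift46 was the member whose probes went opposite ways. Probe 3, the dimmest, read 7.64, 8.71, 8.63 and 8.03 on the WT veh arrays 1 to 4 and 5.61, 5.85, 4.29 and 5.95 on the Atm-/- veh arrays. With NR it read 8.50, 8.27, 8.39 and 8.43 on WT arrays and 5.96, 5.66, 5.73 and 5.60 on Atm-/- arrays. The genotypes were far apart in both treatments, with Atm-/- veh 3 as the lowest array and WT veh 1 as the lowest of the WT arrays. The mean difference was -2.83 ± 0.31 (SE, n = 4 against 4) under vehicle, 7.12-fold lower in Atm-/- veh, and -2.66 ± 0.31 under NR, 6.33-fold lower. With the normexp background correction, which compresses dim signals, these differences were -1.71 and -1.74.

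Probe 1 of Ift46, the brightest, read 13.97, 13.53, 13.61 and 13.67 on WT veh arrays and 14.23, 14.22, 14.26 and 14.31 on Atm-/- veh arrays. It was higher in Atm-/- mice by 0.56 ± 0.09 (SE) under vehicle and by 0.73 ± 0.09 under NR, with no overlap over all 16 arrays. Probe 2 was higher in Atm-/- mice as well, by 0.75 ± 0.14 and 0.76 ± 0.14, and overlapped only because WT veh 1 (10.96) lay above Atm-/- NR 1 (10.93). Within an array, probe 1 exceeded probe 3 by 4.82 to 6.33 in WT veh and 4.99 to 5.33 in WT NR, but by 8.36 to 9.97 in Atm-/- veh and 8.44 to 8.73 in Atm-/- NR. These gaps are on the quantile-normalized values and were not computed on others. The gap between probes 1 and 2 ran from 2.99 to 3.34 in WT veh and from 2.83 to 3.09 in Atm-/- veh, and its groups overlapped. Without WT veh 1 the vehicle differences of probes 1, 2 and 3 were 0.65, 0.89 and -3.02.

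Lrrc49, the other member tied to cilia and microtubules, was one of the higher members. Its probe read 12.22, 12.27, 12.57 and 11.54 in WT veh and 13.14, 12.77, 13.61 and 13.27 in Atm-/- veh. Under NR the values were 11.96, 12.12, 11.85 and 11.65 in WT and 12.95, 12.88, 12.78 and 12.90 in Atm-/- mice. Every Atm-/- array was above every WT array, by a mean of 1.05 ± 0.20 (SE) under vehicle and 0.98 ± 0.20 under NR. WT veh 1 was within the other WT arrays here, and the vehicle difference without it was 1.07. Of the 7 lists of cell type markers, that of choroid plexus and ependyma, the linings of the ventricles that bear cilia, varied most between arrays. The mean log2 level of its 10 measured markers, relative to their mean over all arrays, ran from -1.28 to 2.63 over the WT veh arrays and from -1.58 to -0.07 over the Atm-/- veh arrays, with WT veh 1 at 0.95. Under NR it ran from -1.25 to 0.79 in WT and from -0.13 to 0.16 in Atm-/- mice, where Ift46 probe 3 differed by -2.66 and Lrrc49 by 0.98. From 8 to 10 of these markers were detected on an array, and their part in these differences was not tested.

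The membrane protein gene Tmem25 was lower in Atm-/- mice. Its probe read 14.17, 14.75, 14.69 and 14.30 in WT veh against 12.88, 12.69, 12.22 and 12.77 in Atm-/- veh. With NR it read 15.05, 14.49, 14.53 and 14.86 in WT against 12.40, 12.50, 12.42 and 12.59 in Atm-/- mice. The lowest WT array (WT veh 1) was above the highest Atm-/- array (Atm-/- veh 1). The difference was -1.84 ± 0.17 (SE) under vehicle and -2.25 ± 0.17 under NR, or 3.57-fold and 4.77-fold lower, and -1.94 under vehicle without WT veh 1. Ift46 and Tmem25 are neighbours on the chromosome, so a probe that was lower by 2.83 (Ift46 probe 3), others that were higher (Ift46 probes 1 and 2) and a lower neighbour lay side by side.

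Both probes of the receptor chain Il10ra were lower in Atm-/- mice. Probe 1 read 8.66, 9.15, 9.33 and 9.24 in WT veh and 6.98, 7.20, 7.75 and 7.07 in Atm-/- veh, a difference of -1.84 ± 0.22 (SE), or -1.98 without WT veh 1. Under NR it read 9.54, 9.24, 9.58 and 9.37 in WT and 7.53, 8.27, 8.06 and 7.29 in Atm-/- mice, a difference of -1.64 ± 0.22. The nearest arrays of the genotypes were WT veh 1 and Atm-/- NR 2. Probe 2 was dim: it was well above background on all 8 WT arrays, on 3 of the 4 Atm-/- veh arrays and on none of the Atm-/- NR arrays. Its vehicle difference was -1.96 ± 0.43, -2.04 without WT veh 1, and -0.61 with the normexp background correction. Under NR only a bound can be given, at least 2.44-fold higher in WT NR. That bound sets the mean of WT NR against the higher, on each array, of the probe's own signal and the lowest signal among probes well above background. Il10ra is expressed by microglia, and the 14 measured microglia markers, all detected on every array, had mean relative levels from -0.20 to 0.64 in WT veh and -0.25 to 0.53 in Atm-/- veh, and from -0.23 to 0.17 and -0.24 to -0.02 under NR. These ranges overlapped between genotypes, and none of the 18 probes of microglia markers passed the test between genotypes in either treatment.

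Nrg4, the ErbB4 ligand, was dim on all of its probes. Probe 3 read 5.40, 6.60, 6.39 and 6.25 in WT veh and 3.99, 3.70, 3.11 and 4.13 in Atm-/- veh, and was well above background on 2 of the latter. Under NR it read 5.93, 6.09, 6.52 and 6.27 in WT and 4.94, 3.98, 3.28 and 4.88 in Atm-/- mice, with 1 of the latter well above background. The groups did not overlap, and the difference was -2.43 ± 0.36 (SE) under vehicle, -2.58 without WT veh 1, and -1.93 ± 0.36 under NR. With normexp it was -0.81 and -0.62, and that of probe 1 was -0.51 and -0.53. Probe 1 was lower by 1.02 ± 0.22 in both treatments, from means of 6.32 to 5.31 under vehicle and of 6.56 to 5.54 under NR, where 2 of the 4 Atm-/- NR arrays were well above background, and its vehicle difference without WT veh 1 was -1.17. Probe 2 was left out of the fit because a spot on Atm-/- NR 3 was marked as an outlier. It was well above background on 3 of the WT veh arrays, all WT NR arrays and 2 of the Atm-/- veh arrays. On none of the 3 remaining Atm-/- NR arrays was it so, and their mean of 4.95 is not a measured level. Its Atm-/- mean under vehicle was 4.06 and its WT means were 5.58 and 5.94. It overlapped on WT veh 1 (4.34), where it was not well above background either.

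Fxyd6, the modulator of the sodium pump, was lower in Atm-/- mice. It read 15.73, 16.21, 16.09 and 15.98 in WT veh and 14.33, 14.58, 15.07 and 14.04 in Atm-/- veh. Under NR it read 15.65, 16.19, 15.59 and 15.71 in WT and 14.44, 14.61, 14.84 and 14.40 in Atm-/- mice. The groups came closest at Atm-/- veh 3 and WT NR 3 and did not overlap. The difference was -1.50 ± 0.20 (SE) under vehicle, -1.59 without WT veh 1, and -1.21 ± 0.20 under NR. No spot was saturated on any array.

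Pts, the synthase of the tetrahydrobiopterin pathway, was lower in Atm-/- mice and set WT veh 1 apart from the other WT veh arrays. It read 9.81, 10.49, 10.47 and 10.52 in WT veh, where 3 arrays lay between 10.47 and 10.52 and WT veh 1 below them. It read 8.98, 9.02, 8.65 and 9.21 in Atm-/- veh, 10.49, 10.51, 10.69 and 10.65 in WT NR, and 9.53, 9.72, 9.35 and 9.46 in Atm-/- NR. The difference was -1.36 ± 0.16 (SE) under vehicle, -1.53 without WT veh 1, and -1.07 ± 0.16 under NR. Nxpe4 had the same layout. It read 8.24, 9.01, 9.07 and 9.12 in WT veh and 7.76, 7.78, 7.62 and 7.94 in Atm-/- veh, a difference of -1.09 ± 0.17 or, without WT veh 1, of -1.29. Under NR it read 8.50, 8.78, 8.89 and 8.85 in WT and 7.34, 7.67, 7.20 and 7.42 in Atm-/- mice, a difference of -1.35 ± 0.17.

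The probes of the ribonuclease gene Zc3h12c, the member closest to Atm, disagreed. Probe 1 read 10.01, 10.02, 9.82 and 9.76 in WT veh and 10.61, 10.79, 10.77 and 10.49 in Atm-/- veh. It read 10.07, 9.99, 9.73 and 10.07 in WT NR and 10.55, 10.43, 10.68 and 10.75 in Atm-/- NR. All Atm-/- arrays were above all WT arrays, by 0.76 ± 0.11 (SE) under vehicle, 0.80 without WT veh 1, and 0.64 ± 0.11 under NR. Probe 2 differed by 0.08 ± 0.17 under vehicle and 0.07 ± 0.17 under NR, with 95% intervals of -0.27 to 0.44 and -0.28 to 0.43, and its genotypes overlapped. Leaving out WT veh 1 gave a vehicle difference of 0.05 for probe 2, and leaving out Atm-/- veh 3 gave -0.10. Within an array, probe 1 exceeded probe 2 by 0.86 to 1.33 on the WT arrays and by 1.37 to 2.11 on the Atm-/- arrays. The parts of the transcripts that the probes of Zc3h12c, Ift46, Nrg4 and Il10ra match were not analysed here.

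Every member probe in the fit had a genotype difference of the same sign under vehicle and under NR. For Zc3h12c probe 2 the vehicle sign turned when Atm-/- veh 3 was left out. The vehicle and NR differences come from separate mice, 4 WT and 4 Atm-/- in each. Both treatments share the choice of members and the split of the genotypes over slides, so nothing is read from the shared sign. As a description that the choice of members fixed and that supports nothing, the limma threshold (Benjamini-Hochberg adjusted p under 0.05) took in 8 of the 14 probes under vehicle, 1 higher and 7 lower, and 0.0537% of all probes. Under NR it took in 6, 1 higher and 5 lower, and again 0.0537% of all probes. The median size of the difference was 1.22 for the members and 0.16 for all probes under vehicle, and 1.14 and 0.11 under NR.

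**Figure D3:**
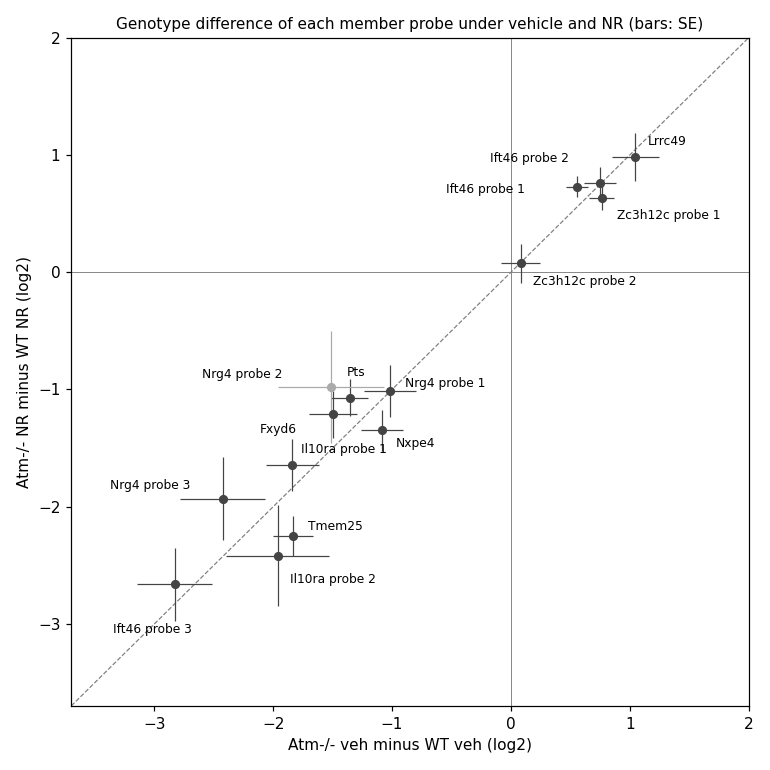
Log2 difference between Atm-/- and WT arrays under vehicle (x axis) and under NR (y axis) for each member probe, with bars of 1 SE; the dashed line marks equal differences and the grey point, Nrg4 probe 2, was not in the fit. All points lie in the lower left or upper right quadrant, from -2.83 and -2.66 for Ift46 probe 3 to 1.05 and 0.98 for Lrrc49. Il10ra probe 2 was well above background on none of the Atm-/- NR arrays. Its place on the y axis is therefore not a measured size, and only the bound of at least 2.44-fold can be given. The Atm-/- NR arrays used for Nrg4 probe 2 were not well above background either.

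The share of member probes called for NR was near that over all probes, and a probe that was not called may still have changed. In WT mice 0 of 14 member probes were called by limma, where 0% of 37253 probes were called, 0 members and 2838 of all probes had an unadjusted p under 0.05, and the smallest adjusted p over all probes was 0.229. The member differences ran from -0.25 for Lrrc49 to 0.47 for Il10ra probe 2. In Atm-/- mice 1 of 14 was called, Pts, where 9.04% of all probes were called, 1697 higher and 1669 lower. The count over all probes, 3366, was 364 without the 4 arrays that lacked Y-gene signal and 845 to 4469 with 1 array left out, among them 845 without Atm-/- veh 1, 1285 without Atm-/- veh 4, 1516 without Atm-/- NR 2, 938 without Atm-/- NR 3 and 2044 without Atm-/- NR 4. Pts rose by 0.55 ± 0.16 (SE, limma adjusted p = 0.0433) with NR, a 1.47-fold increase, and all 4 Atm-/- NR arrays (9.35 to 9.72) were above all 4 Atm-/- veh arrays (8.65 to 9.21). Over 23 alternatives the Pts difference ran from 0.45 to 0.63 and its adjusted p from 0.0161 to 0.178, under 0.05 in 7. In WT mice Pts differed by 0.27 ± 0.16, and by 0.10 without WT veh 1.

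The sizes of the other NR differences in Atm-/- mice were modest. Il10ra probe 1 was higher by 0.54 ± 0.22 (SE, limma adjusted p = 0.138), with a 95% interval of 0.06 to 1.01, and Nxpe4 lower by 0.37 ± 0.17 (adjusted p = 0.192), from a mean of 7.77 to 7.41. The median size over the members was 0.21, and over all probes 0.21. The difference between the NR effects of the genotypes was called for 0 of 14 members, where 0% of all probes were called. Here 0 members and 1962 of all probes had an unadjusted p under 0.05, and the smallest adjusted p of any probe was 0.839. The interval of that difference was -0.19 to 0.76 for Pts, -0.93 to 0.10 for Tmem25, -0.78 to 1.12 for Ift46 probe 3 and -0.67 to 0.55 for Lrrc49. Differences of up to these sizes between the NR effects therefore remain possible. In every member the NR difference in Atm-/- mice was smaller in size than the genotype difference under vehicle, apart from Zc3h12c probe 2, at 0.09 and 0.08.

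**Figure D4:**
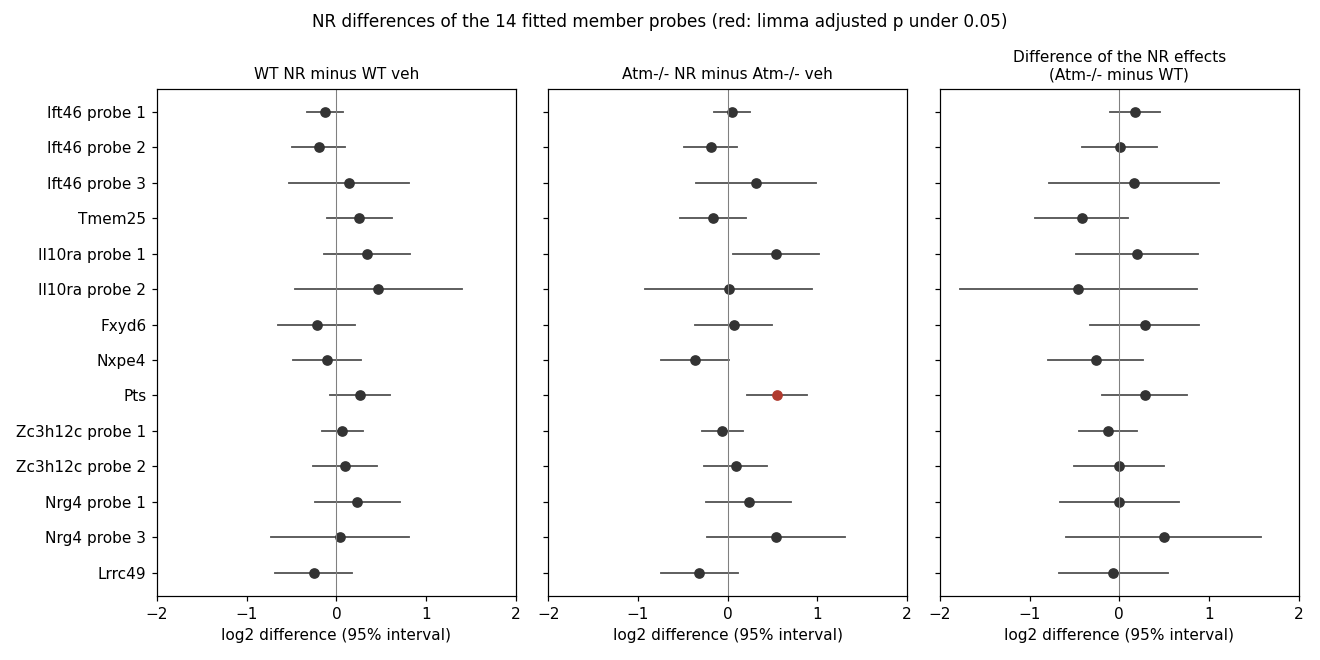
NR minus vehicle in WT mice, NR minus vehicle in Atm-/- mice, and the difference of both, as log2 values with 95% intervals (x axes) for the 14 member probes in the fit (y axis). The red point, Pts in Atm-/- mice at 0.55, is the 1 call by limma at an adjusted p under 0.05, and all intervals of the third panel include 0. Il10ra probe 2 was not well above background on any Atm-/- NR array.

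On the chromosome 7 members lie on one side of Atm and 2 on the other. In order they are Ift46, Tmem25, Il10ra, Fxyd6, Nxpe4, Pts and Zc3h12c, then Atm, then Nrg4 and Lrrc49. Zc3h12c is the fifth measured gene from Atm, Nrg4 is 21 genes away, Pts 31, Nxpe4 46, Ift46 75 and Lrrc49 89. Neither direction was limited to one side. Nrg4 was lower and Lrrc49 higher on the one. On the other, the brighter Zc3h12c probe and the 2 brighter Ift46 probes were higher. The dimmest Ift46 probe and Tmem25, Il10ra, Fxyd6, Nxpe4 and Pts were lower there. The dimmer Zc3h12c probe differed by 0.08 under vehicle and 0.07 under NR, and its genotypes overlapped. Each neighbour was taken at its brightest kept probe alone, while the shares over all probes count every kept probe. Over the 14 measured neighbours that are not members, the median size of the vehicle difference was 0.29, beside 0.16 over all probes. Against 0.244% of all probes, 2 of these 14 neighbours had genotypes that did not overlap. These were Bco2, an enzyme of carotenoid cleavage beside Pts, at -1.67 under vehicle and -1.87 under NR, and 9230112J17Rik beside Lrrc49, at -1.06 and -0.97. On the other side of Pts lay Plet1, which was at -1.74 under vehicle and -0.19 under NR, and which was one of the probes called for NR in Atm-/- mice, at 1.40. Arcn1 beside Ift46 was at -0.05 and 0.03, Atp5l beside Tmem25 at 0.02 and 0.06, and Rdx beside Zc3h12c at 0.01 and -0.02. Larger values were seen for BC049352 beside Il10ra, at -0.40 and -1.10, and Fxyd2 beside Fxyd6, at 0.28 and 0.69. Plet1, BC049352 and Bco2 were dim, with mean log2 signals of 5.15, 5.53 and 6.39. At such levels the size of a difference depends on the background correction. Nxpe2 beside Nxpe4 was at 0.40 and 0.41, and AI593442 beside Zc3h12c at 0.30 and 0.56. Of the 524 probes of other genes within 20 Mb of Atm, 14 had genotypes that did not overlap. The number over all 37253 probes was 91 (0.244%). Among the 14 were Layn, a receptor for hyaluronan, at -0.86 and -0.77, and Ppcdc, an enzyme of coenzyme A synthesis, at 0.61 and 1.02.

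The genes whose pattern over the 16 arrays was most like that of a member were sought by Pearson's r over all probes, as a description over arrays that share genotype and slide. Each member was represented by its fitted probe with the largest genotype difference under vehicle, which for Il10ra was the dim probe 2. Taking 2 for each member gave 12 different genes, 4 of them members themselves, and 11 of the 12 lie on chromosome 9. The exception was Ppp1r3b for Zc3h12c (r = 0.88). Members were chosen by the genotype difference, so a high r mainly finds probes that split by genotype. Nothing is read from the share on chromosome 9. Ift46 probe 3 was most like Tmem25 (r = 0.97) and Pts (r = 0.95), and Nrg4 probe 3 most like Ift46 probe 3 (r = 0.94) and Pts (r = 0.94). Fxyd6 and Nxpe4 were each most like the dimmer Atm probe (r = 0.91 and r = 0.93). Lrrc49 was most like Arih1 (r = 0.90) and 1700017B05Rik (r = 0.89), Zc3h12c probe 1 most like Nkapd1 (r = 0.94), Il10ra probe 2 and Tmem25 each took in 1700063D05Rik (r = 0.87 and r = 0.93), Pts was also close to 9230112J17Rik (r = 0.94) and Nxpe4 to Alg9 (r = 0.93).

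Partners and relatives of the members, nearly all on other chromosomes, gave a view of the same pathways away from Atm. Of the 90 genes in 9 lists, 78 were measured, by 117 probes, and 6 of the measured genes lie on chromosome 9. None of the 117 probes passed the test between genotypes by limma, under vehicle (smallest adjusted p = 0.172) or under NR (smallest adjusted p = 0.853), and the median differences were -0.024 and -0.00062 beside -0.0042 and 0.0010 over all probes. With NR in WT mice 0 of them were called, and with NR in Atm-/- mice 4 were higher and 5 lower, 7.69% of 117 beside the 9.04% of all probes. In place of these 9 calls there were 3 without the 4 arrays that lacked Y-gene signal, 1 without Atm-/- veh 1, Atm-/- NR 2 or Atm-/- NR 3, 2 without Atm-/- NR 4, 3 without Atm-/- veh 4, 4 without Atm-/- NR 1 and 5 without Atm-/- veh 3. In the intraflagellar transport complex, the partners of Ift46, Ift20 (0.27, adjusted p = 0.0478), Hspb11 (0.31, adjusted p = 0.0318) and a probe of Ift88 (0.39, adjusted p = 0.0256) rose and a probe of Ift172 fell by 0.34 (adjusted p = 0.0247) with NR in Atm-/- mice by limma, out of 25 probes. The second probes of Hspb11, Ift88 and Ift172 were at 0.18, 0.10 and 0.30 and were not called.

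Among the other lists, a probe of the NMDA receptor subunit Grin1 fell by 0.58 with NR in Atm-/- mice (limma adjusted p = 0.00894), while its other probe was at -0.24 (adjusted p = 0.338). A probe of the receptor Egfr, of the family that Nrg4 signals through, fell by 0.86 (limma adjusted p = 0.0333), and its other probes were at 0.44 and -0.35 and were not called. The sodium pump regulator Fxyd1 fell by 0.45 (limma adjusted p = 0.0286). A probe of Pcm1, listed with the polyglutamylase complex, rose by 0.78 (limma adjusted p = 0.0476), and its other probes were at -0.03 and 0.23 and were not called. In the tetrahydrobiopterin list, where no probe was called in any contrast, Gch1, which makes the substrate of Pts, was at -0.15 under vehicle and 0.21 under NR between genotypes, and the genes with the largest vehicle differences were Th, at 1.09 and 1.35 on its 2 probes, and Tph2 at -0.46. In the lists with no call at all, Ifnlr1 was at -0.43 and Socs3 at -0.33 among relatives of interleukin-10 signalling, Zc3h12b at -0.94 and Malt1 at 0.45 and 0.11 on its 2 probes among the ribonuclease list, and Nxpe2 at 0.40 and Nxpe3 at -0.11 in the Nxpe family, all as Atm-/- veh minus WT veh and none past the test.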

How the data were processed

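For each of the 16 arrays the authors deposited Agilent Feature Extraction 12.0.3.1 output, in which the intensity of a spot is its background-subtracted signal, not normalized between arrays. They also deposited a score for each spot, a z-score within the array, used here as an alternative. Groups and replicate numbers were read from the sample labels.

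Probes were named through their accessions with RefSeq genes of assembly GRCm38.p6 (32994 probes out of 56605). Since the array design used another build, only names and the order of genes came from that source, and promoter windows were taken from RefSeq by symbol. A probe was taken as detected on an array if no fewer than 0.5 of its spots stood well above background there, and had to be so on the whole of 1 group of 4 arrays or more to be kept. Their log2 signal was quantile normalized, outlier spots were set aside, and spots were averaged per probe. Probes with a value missing on any array were dropped (788 of 38041).

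The linear model (limma 3.58.1, R 4.3.3) held a mean for each of 4 groups, with 12 residual degrees of freedom and Benjamini-Hochberg adjustment over 37253 probes. The procedure was tested on simulated data. Plots were drawn with matplotlib 3.10.9. The labels do not say that mice of a group came from separate litters or cages.

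The members, the partner and marker lists and the tests were chosen with earlier results of these data known. Named genes were Atm, all members, partners called in any of the 5 contrasts or else the 2 of a list with the largest vehicle difference, the 2 genes most like each member, and its nearest measured neighbours; 1 called partner is not reported here. Alternatives were other scalings (75th percentile, normexp with an offset of 50, the deposited scores), other filters, the groups compared alone, the replicate number or the slide as a block, arrays left out, and the methods' t-test. That t-test was run on z-scores of the kept probes at p under 0.05. The further thresholds that the study's methods set beside it were not applied, so its counts are not those of the study's full criterion. The positions of arrays between genotypes, the counts of non-overlapping probes with arrays left out and the alternatives for partner calls under NR were added after the data were seen.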

Additional observations from a re-analysis of the deposited data

Results flagged for a closer look

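Over 59 groups of 4 arrays, 1 for each member probe and group, the highest or lowest array was checked for a gap to its nearest neighbour of over 0.829 of the whole range of the group. Chance marks about 1 in 20 such groups, and 2 of the 59 were marked. Both were WT veh 1: Pts at 9.806, with a gap of 0.928 of the range, and Nxpe4 at 8.238, with a gap of 0.872 of the range, each below the 3 other WT veh arrays and toward the Atm-/- arrays.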

How the results depend on the processing

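The genotype differences of members kept their direction under every alternative on the log2 scale, apart from Zc3h12c probe 2 under vehicle (0.08), which ran from -0.096 (without Atm-/- veh 3) to 0.207 (without Atm-/- veh 1) with 1 array left out and was -0.096 without the arrays lacking Y-gene signal. Counts of member probes past the threshold, which for the genotype differences only restate the choice of members, moved more. Under vehicle the count of 8 was 1 with only the arrays of the groups compared, 4 without the arrays lacking Y-gene signal, 13 by the unadjusted methods' t-test and 0 once its p-values were adjusted, and 5 to 10 with 1 array left out (5 without WT veh 3, WT veh 4 or Atm-/- veh 3). Under NR the count of 6 was 2 without the arrays lacking Y-gene signal, 13 by the methods' t-test and 2 after adjustment, and 4 to 7 with 1 array left out. The single call for NR in Atm-/- mice, Pts, was 0 calls without the filter on dim probes, with only the groups compared, within the slide, without the arrays lacking Y-gene signal and by the methods' t-test after adjustment, and 2 calls by that test unadjusted. It was 0 to 1 with 1 array left out, and 0 in 13 of those 16 fits. No member probe was called for NR in WT mice or for the difference of NR effects under any of the 27 and 23 alternatives run. Of the partner probes 0 were called in either genotype comparison, apart from 6 and 7 by the unadjusted methods' t-test. The 9 partner calls for NR in Atm-/- mice were 4 with only the groups compared, 3 without the arrays lacking Y-gene signal, 31 by the unadjusted methods' t-test and 1 to 11 with 1 array left out. Member probes with no overlap between genotypes numbered 12 to 14 with 1 array left out.

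The deviations of same-numbered arrays of different groups had correlations of -0.15 to 0.20 over 16 pairs. Between Atm-/- NR and WT NR all 4 were positive, at 0.05 to 0.20. Such values cannot show whether mice were paired by litter or cage, and the main model did not use the replicate number. With a replicate block 6 member probes were called under vehicle, 7 under NR and 1 for NR in Atm-/- mice, 7 partner probes for NR in Atm-/- mice, and 15, 19 and 3140 of all probes. The slide could not be fitted as a block for the genotype differences, because each genotype lay on a slide of its own, and the deposited scores gave no difference in log2 units. Dim probes (among the members Nrg4, Il10ra probe 2 and Ift46 probe 3) lie near the background, where the correction sets the size of a difference.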
